A study of Mus musculus with 10 samples.

Results

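The 10 genes described here encode RNA-binding proteins that choose exons in heart muscle pre-mRNA: Rbm20, Rbm24, Celf1, Celf2, Mbnl1, Mbnl2, Rbfox1, Rbfox2, Ptbp1 and Qk. They were taken by symbol from count tables that list 48397 genes, and all 10 were among the 15175 genes abundant enough to test. Wild-type mice were operated on at 2 months of age: a constriction was placed around the transverse aorta (TAC), which loads the heart, or a sham operation was done. Bulk RNA of the left atrium was sequenced 2 weeks later. The series' design text gives male C57BL/6J mice and the left appendage, and it names another library kit than the sample labels do. There were 5 sham and 5 TAC libraries, and the labels name no transgene or deletion in either group. Nothing in the labels says that each library is a separate animal, so p-values measure the spread between these libraries, which may be partly technical.

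Alternative splicing lets a muscle gene make different proteins before and after birth, and a small set of RNA-binding proteins sets most of that pattern in the heart. RBM20 represses exons of titin and of calcium-handling genes, and mutations in it cause dilated cardiomyopathy. RBM24 promotes inclusion of muscle exons. CELF and MBNL proteins act against each other on many exons: CELF activity is high in the fetal heart, MBNL activity rises after birth, and loss of that balance underlies the heart disease of myotonic dystrophy. RBFOX proteins bind UGCAUG beside regulated exons, PTBP1 represses muscle and neuronal exons through pyrimidine-rich tracts, and Qk encodes quaking, a STAR-family protein of muscle and glia. The counts are per gene, so they show how much RNA each regulator gene gave and not which exons were used.

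Scaling and cell makeup bear on every value below. Totals over genes ran from 17117306 to 43956384 counts per library, and the first principal component, with 70.2% of the variance, separated the groups. Levels are CPM, a library's counts as a share of its total, with that total adjusted by the trimmed mean of M-values (TMM). All tested genes had a median log2 fold change of 0.01 under TMM and of 0.37 when libraries were scaled by their size alone, so a value near 0 under TMM lies near 0.37 there. The tissue carried atrial muscle markers in sham (Myl7 at 8888 ± 623 CPM and Nppa, which encodes atrial natriuretic peptide, at 5663 ± 433 CPM, SD, n = 5), and cell type markers differed between the groups. Of 15 cardiomyocyte markers 13 fell and 2 rose (median log2 fold change -1.12), and their summed level was 92022 to 109580 CPM in sham and 49303 to 64607 in TAC, with no overlap. Summed markers of activated fibroblasts (322 to 472 CPM in sham, 1477 to 3992 in TAC), of macrophages and monocytes (337 to 596, 834 to 1406), of smooth muscle and pericytes (577 to 652, 794 to 1041) and of proliferating cells (3.45 to 23.5, 144 to 552) were higher in every TAC library than in any sham library. Those of adipocytes (12.1 to 51.7, 0.424 to 8.46) and of Schwann cells and neurons (26.6 to 33.1, 6.75 to 16.6) were lower. The summed ranges of the other lists overlapped, although single genes of them changed. Of 11 fibroblast genes 7 rose and 2 fell (median 1.15), with Col3a1 going from 457 ± 107 to 3431 ± 1107 CPM and Gsn from 3264 ± 668 to 1000 ± 280 CPM (SD, n = 5). All 5 erythroid genes rose (median 2.17). Of 5 tested skeletal muscle genes 3 rose and 1 fell: Tnnt3 went from 1.29 ± 0.611 to 142 ± 79.7 CPM, and Ckm, which is also on the cardiomyocyte list, fell. Endothelial genes had 4 higher and 2 lower of 10, endocardial genes 1 and 1 of 6, mesothelial genes 2 and 0 of 7, and lymphocyte genes 1 and 0 of 2. No listed marker was at 0 in all libraries. Fewer cells of a type and less RNA per cell cannot be told apart in bulk tissue, and the part of cell makeup in the changes below was not tested.

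Promoter windows of 300 bases (250 before to 50 after a start site, RefSeq, GRCm38.p6) were listed for 8 of the 10 genes, 14 windows in all. The windows below were chosen after the values were seen. They are both windows listed for Rbfox1, which fell most of the 10 genes, and, as examples of GC-rich starts, those of Qk and Celf1. The first Rbfox1 window ends before the annotated span of the gene given below. Which starts of a gene were used cannot be read from counts per gene. Capitals mark the GC box, GGGCGG on either strand.
Rbfox1, chr16:5884543-5884842, plus strand: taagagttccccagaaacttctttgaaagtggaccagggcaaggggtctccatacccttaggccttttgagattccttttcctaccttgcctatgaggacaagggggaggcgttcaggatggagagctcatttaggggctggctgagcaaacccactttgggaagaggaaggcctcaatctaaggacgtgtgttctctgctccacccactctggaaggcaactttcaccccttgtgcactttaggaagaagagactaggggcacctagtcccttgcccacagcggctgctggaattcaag
Rbfox1, chr16:7069585-7069884, plus strand: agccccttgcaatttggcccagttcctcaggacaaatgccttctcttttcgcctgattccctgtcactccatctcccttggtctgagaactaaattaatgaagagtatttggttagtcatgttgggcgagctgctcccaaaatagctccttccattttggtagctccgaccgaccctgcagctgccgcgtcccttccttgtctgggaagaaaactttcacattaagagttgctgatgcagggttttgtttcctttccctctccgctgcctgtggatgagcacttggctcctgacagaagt
Qk, chr17:10319312-10319611, minus strand: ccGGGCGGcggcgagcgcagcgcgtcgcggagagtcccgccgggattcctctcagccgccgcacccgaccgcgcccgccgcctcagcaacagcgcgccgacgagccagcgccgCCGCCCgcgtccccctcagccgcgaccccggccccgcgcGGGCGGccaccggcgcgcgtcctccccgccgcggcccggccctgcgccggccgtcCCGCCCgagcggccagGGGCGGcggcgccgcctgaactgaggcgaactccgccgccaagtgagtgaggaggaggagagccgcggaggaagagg
Celf1, chr2:90940147-90940446, plus strand: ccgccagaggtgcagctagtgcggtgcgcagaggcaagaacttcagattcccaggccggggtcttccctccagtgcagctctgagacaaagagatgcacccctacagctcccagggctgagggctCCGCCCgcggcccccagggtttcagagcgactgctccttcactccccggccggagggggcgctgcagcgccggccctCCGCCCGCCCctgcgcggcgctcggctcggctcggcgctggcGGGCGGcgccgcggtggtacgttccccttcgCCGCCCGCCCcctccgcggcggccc

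The windows of the members differ widely in base composition, from 39.3% to 81.7% G and C, against a median of 52.7% over all 32851 windows. Neither Rbfox1 window (52.7% and 50% G and C) holds a GC box. The Qk window (81.7%) holds 5 and the Celf1 window (74.3%) holds 6, of which 4 form overlapping pairs. The window of Rbm24, which fell less than Qk, has 64.7% G and C and 0 GC boxes. A GC box occurs in 7 of the 14 windows and in 35.7% of all windows. Because the series concerns the ETS factor ETV1, an ETS motif (CCGGAAG, either strand) was searched as well: 0 of the 14 windows hold it, and 8.86% of all windows do. The MEF2 motif was in 0 of the 14 and in 0.557% of all windows, and TATAAA was in 2 of the 14, 1 of Celf2 and 1 of Mbnl1, and in 13.6% of all windows. These are matches of letters in one window per start and nothing more.

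Of the 10 regulators 7 were lower after TAC, 0 were higher and 3 did not pass the test (edgeR quasi-likelihood test, Benjamini-Hochberg adjusted p under 0.05 over all tested genes). The same 7 had no overlap between the groups' CPM. Over all tested genes 27.9% were called lower, 28.9% higher and 56.8% either way, 41.7% did not overlap, and 20.2% did not overlap with TAC lower. Rbfox1 and Rbm20 fell by at least 1 on the log2 scale, as 8.1% of all genes did. The median log2 fold change of the 10 was -0.52, against 0.01 over all genes. Together the 10 genes gave 2326 ± 189 CPM in sham and 1484 ± 78.8 CPM in TAC (SD, n = 5). DESeq2 and limma voom also called 7 lower and 0 higher. With library size as the only scaling, 5 were lower (Rbfox1, Rbm20, Qk, Rbm24 and Mbnl2), 3 were higher (Celf2, Rbfox2 and Ptbp1), and Celf1 and Mbnl1 were not called, while 12.7% of all genes were lower and 51% higher (63.7% either way).

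**Figure D1:**
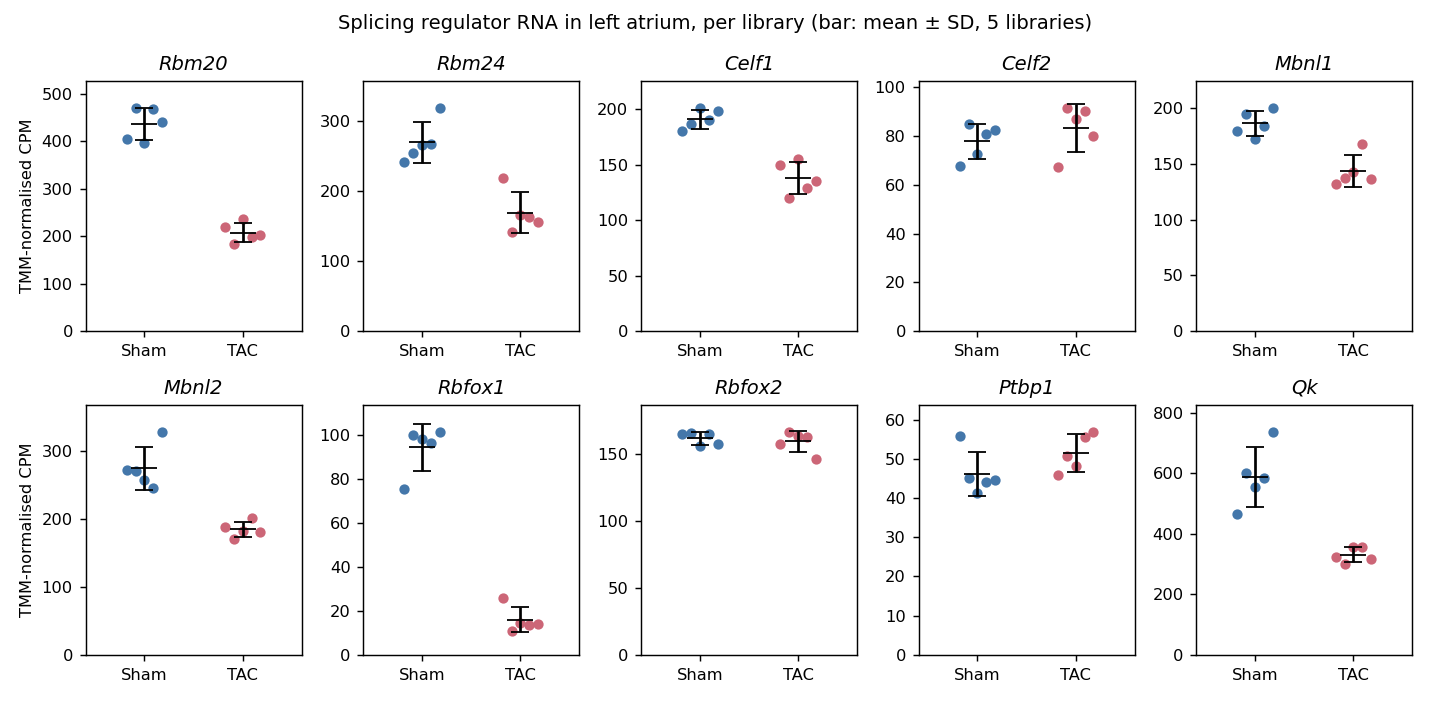
TMM-normalised CPM (linear axes from 0) of the 10 regulators in each of 5 sham (blue) and 5 TAC (red) libraries, with mean ± SD as black bars. The groups do not overlap for Rbm20, Rbm24, Celf1, Mbnl1, Mbnl2, Rbfox1 and Qk, and they overlap for Celf2, Rbfox2 and Ptbp1.

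Rbfox1, which encodes the RBFOX protein of heart, skeletal muscle and brain, fell most. Its gene spans chromosome 16, 5885355 to 7411526 (GRCm38). It stood at 75.7, 100.1, 98.4, 96.3 and 101.6 CPM in sham replicates 1 to 5 and at 25.8, 11.1, 14.7, 13.7 and 14.2 CPM in TAC replicates 1 to 5. Every TAC library lay below every sham library, the lowest sham value belonged to sham replicate 1 and the highest TAC value to TAC replicate 1. The log2 fold change was -2.57 (SE 0.21, 95% interval -3.02 to -2.12, adjusted p = 3.4e-06), which left 16.9% of the sham level. Among all 15175 tested genes 0.909% fell further. TAC replicate 1 also had the highest mitochondrial share (14.2% of counts, against 9.31% to 12.1% in the other TAC libraries) and the highest summed cardiomyocyte markers of the TAC libraries (64607 CPM). Without that library the log2 fold change was -2.80. Of the 15 cardiomyocyte markers 0 fell further than Rbfox1. The largest fall among them, -2.43 for Pln, lies inside the 95% interval of Rbfox1. No 50-base stretch of an Rbfox1 transcript occurs in another annotated gene.

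Rbfox2, which encodes the more widely expressed paralog, did not pass the test. Its sham libraries held 165.1, 166.0, 155.8, 164.7 and 157.6 CPM and its TAC libraries 157.4, 166.8, 163.6, 162.5 and 146.6 CPM. The groups overlapped, and the log2 fold change was -0.02 (SE 0.06, 95% interval -0.16 to 0.11, adjusted p = 0.78). Its sign depended on the scaling and on single libraries: it was 0.34 with library size only (adjusted p = 0.0024) and 0.03 with upper-quartile factors. The ratio of Rbfox2 to Rbfox1 counts in a library does not depend on the scaling, but it can still differ with cell makeup. It rose from between 1.55 and 2.18 in sham to between 6.11 and 15.0 in TAC, a 6.07-fold change in the geometric mean (exact two-sided permutation p = 0.0079, the smallest this design allows, adjusted p = 0.016 over 6 ratios). The ratio was above the highest sham value in 5 of 5 TAC libraries.

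Rbm20 and Rbm24 are the heart and skeletal muscle regulators with the highest levels per length here. Rbm20 (chromosome 19, 53677306 to 53867080) stood at 405.3, 470.6, 396.7, 468.4 and 440.3 CPM in sham and at 219.6, 183.1, 236.4, 197.4 and 202.3 CPM in TAC. All TAC values were far below all sham values, and the log2 fold change was -1.07 (SE 0.09, adjusted p = 4.1e-06), or 47.6% of the sham level. Rbm24 (chromosome 13, 46418434 to 46431095) stood at 240.6, 253.4, 265.8, 267.4 and 318.3 CPM in sham and at 218.3, 141.8, 165.7, 162.8 and 156.1 CPM in TAC. Here TAC replicate 1 came near the lowest sham library, and the log2 fold change was -0.67 (SE 0.12, adjusted p = 0.00056). Both genes stayed lower with library size as the only scaling, by log2 fold changes of -0.71 (adjusted p = 4.4e-05) and -0.31 (adjusted p = 0.010). Rbm38, a relative of Rbm24, fell from 96.5 ± 17.6 to 39.4 ± 8.0 CPM (SD, n = 5, log2 fold change -1.29, adjusted p = 3.4e-05).

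Qk was lower in every TAC library than in any sham library. It held 465.3, 602.6, 553.7, 584.3 and 738.1 CPM in sham and 322.6, 301.8, 356.8, 357.5 and 316.0 CPM in TAC (chromosome 17, 10202601 to 10319854). The sham libraries spread more widely than the TAC libraries (coefficient of variation 16.8% and 7.58%), with sham replicate 5 highest and sham replicate 1 lowest, and the groups did not overlap. The log2 fold change was -0.83 (SE 0.12, adjusted p = 0.00011), and -0.46 with library size only (adjusted p = 0.0018). Among its STAR-family relatives Sf1, the branch-point binding factor gene, fell from 134 ± 15.8 to 84.8 ± 6.62 CPM (SD, n = 5, log2 fold change -0.66). Khdrbs1, which encodes SAM68, fell by 0.26 on the log2 scale (adjusted p = 0.018) and Khdrbs3 by 0.44 (adjusted p = 0.0105), and neither of these was called with library size only.

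**Figure D2:**
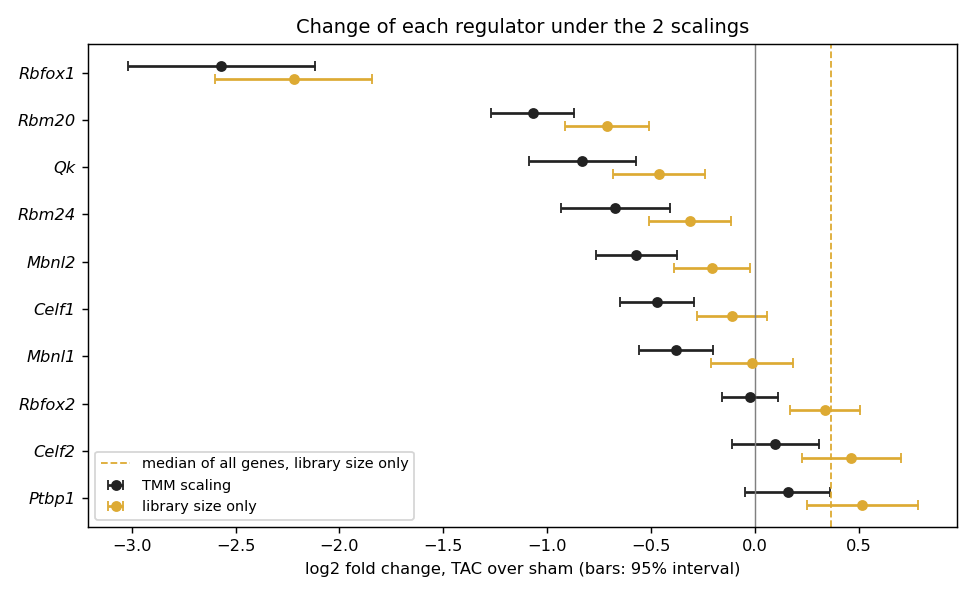
Log2 fold change (TAC over sham, x axis) of each regulator with its 95% interval, under TMM scaling (black) and with library size as the only scaling (yellow); the dashed line is the median of all tested genes under the latter, 0.37. The whole intervals of Rbfox1, Rbm20, Qk, Rbm24 and Mbnl2 lie below 0 under both, and the order of the genes is the same.

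The CELF and MBNL families moved unevenly. Celf1, the widely expressed CELF gene (chromosome 2, 90940382 to 91019497), held 180.3, 186.6, 201.5, 190.3 and 198.2 CPM in sham and 150.3, 120.5, 155.7, 128.8 and 135.1 CPM in TAC. The groups did not overlap, and the log2 fold change was -0.47 (SE 0.08, adjusted p = 0.00047). Celf2, its paralog of heart, brain and lymphocytes (chromosome 2, 6539694 to 7509563), held 67.8, 84.9, 72.7, 80.8 and 82.4 CPM in sham and 67.4, 91.5, 86.9, 90.0 and 79.9 CPM in TAC. Those ranges overlapped, with a log2 fold change of 0.10 (SE 0.10, 95% interval -0.11 to 0.31, adjusted p = 0.41). Of the exonic bases of Celf2, 7.58% lie under an antisense gene, Gm26565. Celf1 was not called with library size only (-0.11, adjusted p = 0.23), whereas Celf2 was then higher (0.46, adjusted p = 0.0027). The ratio of Celf2 to Celf1 counts was 0.361 to 0.455 in sham and 0.449 to 0.759 in TAC, a 1.48-fold rise (exact two-sided permutation p = 0.016, adjusted p = 0.024). Only TAC replicate 1 lay inside the sham range. Celf4, with at most 75 counts in a library, rose from 0.506 ± 0.160 to 1.69 ± 0.192 CPM (SD, n = 5, log2 fold change 1.72, adjusted p = 0.00011). Celf3, Celf5 and Celf6 were too low to test.

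Mbnl1 and Mbnl2, the muscleblind genes of muscle, were both lower. Mbnl1 (chromosome 3, 60472830 to 60629750) held 179.8, 194.8, 172.6, 183.7 and 200.2 CPM in sham and 132.3, 137.2, 142.4, 168.1 and 136.5 CPM in TAC. TAC replicate 4 lay just under the lowest sham library, and the log2 fold change was -0.38 (SE 0.08, adjusted p = 0.0019). Mbnl2 (chromosome 14, 120275669 to 120431697) held 271.4, 269.8, 257.3, 245.0 and 328.4 CPM in sham and 187.7, 170.6, 182.9, 200.8 and 181.4 CPM in TAC. No TAC library reached the lowest sham library, and Mbnl2 fell by 0.57 on the log2 scale (SE 0.09, adjusted p = 0.00022). With library size only, Mbnl2 stayed lower (-0.21, adjusted p = 0.046) and Mbnl1 was at -0.01 (adjusted p = 0.90). The Mbnl2 to Mbnl1 ratio was 1.33 to 1.64 in sham and 1.19 to 1.42 in TAC (0.880-fold, exact two-sided permutation p = 0.032, adjusted p = 0.038). That call was lost without any 1 of 7 libraries (sham replicates 1, 3 and 5 and TAC replicates 2 to 5), with adjusted p from 0.057 to 0.076. The Celf1 to Mbnl1 ratio, which sets a CELF against an MBNL gene, was 0.958 to 1.17 in sham and 0.767 to 1.14 in TAC (log2 difference -0.09, exact two-sided permutation p = 0.45, adjusted p = 0.45). No other CELF to MBNL pair was among the 6 ratios, so the balance of these families as a whole was not tested. Mbnl3 was too low to test.

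Ptbp1 (chromosome 10, 79854427 to 79864771), the pyrimidine-tract repressor gene of non-muscle and fetal cells, did not pass the test. It held 55.9, 45.0, 41.2, 44.0 and 44.7 CPM in sham and 45.8, 50.7, 48.2, 55.7 and 57.0 CPM in TAC. The groups overlapped through sham replicate 1, and the log2 fold change was 0.16 (SE 0.09, 95% interval -0.05 to 0.36, adjusted p = 0.17). Without sham replicate 1, Ptbp1 was called higher (0.23, adjusted p = 0.031). That library was shallow (17117306 counts), but so was sham replicate 2 (17154462 counts), which held 45.0 CPM of Ptbp1. Sham replicate 1 also had the lowest summed cardiomyocyte markers (92022 CPM) and the lowest mitochondrial share (14.6%) of the sham libraries. Which of these traits bears on Ptbp1 was not tested. The adjusted p of Ptbp1 ran from 0.0029 to 0.34 under the 23 alternatives. Of its exonic bases 20.7% lie under antisense genes, and the strand setting of the counts is not given in the sources used here. Its paralogs moved in opposite directions. Ptbp2, the neuronal paralog, fell from 24.1 ± 4.30 to 16.0 ± 1.82 CPM (SD, n = 5, log2 fold change -0.59, adjusted p = 0.0024) and was not called with library size only (-0.23, adjusted p = 0.16). Ptbp3, the paralog of blood cells and other tissues, rose from 42.8 ± 2.51 to 67.0 ± 9.63 CPM (log2 fold change 0.65, adjusted p = 0.00018), and was also called with library size only. The ratio of Ptbp2 to Ptbp1 fell from between 0.424 and 0.646 to between 0.255 and 0.368, and that of Ptbp3 to Ptbp1 rose from between 0.825 and 0.992 to between 1.17 and 1.43. Neither ratio overlapped between the groups (exact two-sided permutation p = 0.0079 for each, adjusted p = 0.016). How many other gene pairs separate in this way was not counted, while 41.7% of single tested genes did not overlap under TMM.

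**Figure D3:**
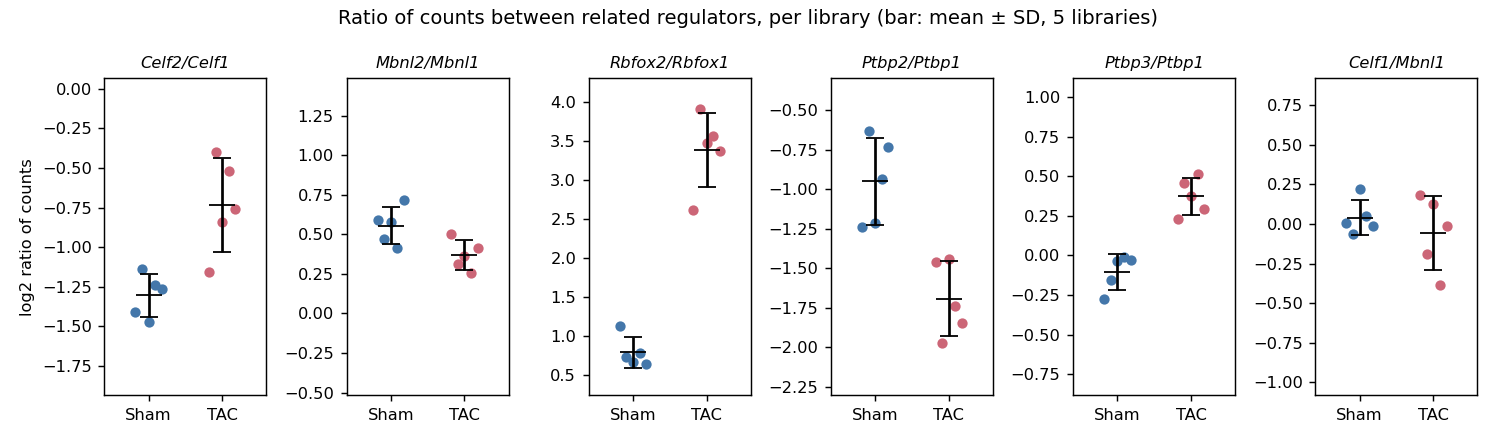
Log2 ratio of counts between related regulators in each of 5 sham (blue) and 5 TAC (red) libraries, with mean ± SD as black bars; the axes differ in range. Rbfox2 to Rbfox1, Ptbp2 to Ptbp1 and Ptbp3 to Ptbp1 do not overlap between groups, while Celf2 to Celf1, Mbnl2 to Mbnl1 and Celf1 to Mbnl1 do.

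Divided by the length of all annotated exons of a gene, the levels had a wide order. That division sets genes on 1 scale only roughly: unused exons count too, and the sources differ on the library kit, so a bias of reads toward transcript ends, which would make the division misleading, was not tested. In sham, Rbm24 (77.1 ± 8.47 CPM per kb) and Rbm20 (64.3 ± 5.08) led, followed by Qk (41.3 ± 6.93). Next came Mbnl2 (22.9 ± 2.67), Celf1 (22.7 ± 1.02), Rbfox1 (21.5 ± 2.42) and Rbfox2 (19.9 ± 0.585), neighbours that lay within 1 SD of each other or close to it. Mbnl1 (9.95 ± 0.599) and Ptbp1 (9.74 ± 1.19) could not be separated, and Celf2 was lowest (3.0 ± 0.278). After TAC the first 3 places were the same, at 48.4 ± 8.34, 30.6 ± 3.04 and 23.2 ± 1.76 CPM per kb. Rbfox1 went from rank 6 to rank 9, at 3.61 ± 1.29 CPM per kb, next to Celf2 at 3.21 ± 0.381. Rbfox2 went from rank 7 to rank 4, at 19.6 ± 0.971 CPM per kb (SD, n = 5 throughout).

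The members were also set against the heart muscle RNA of the same library. Per 10000 counts of the 15 summed cardiomyocyte markers, Rbfox1 went from 9.44 ± 0.751 counts in sham to 2.87 ± 0.677 in TAC (SD, n = 5), and it was the single member whose TAC libraries all lay below the sham libraries. Rbm20 was at 43.8 ± 3.64 and 38.5 ± 4.52, with overlapping groups, and Qk at 58.6 ± 6.23 and 61.4 ± 6.97. On that scale 5 members were higher in every TAC library than in any sham library: Celf1, Celf2, Mbnl1, Rbfox2 and Ptbp1. The marker sum itself was lower in TAC (49303 to 64607 CPM, against 92022 to 109580 in sham). A gene unchanged under TMM therefore rises on this scale by arithmetic. How many of all tested genes were higher, or lower, in every TAC library on this scale was not counted. Neither the 5 higher members nor Rbfox1 as the single lower one is therefore a result about the members. Celf2 went from 7.78 ± 0.551 to 15.6 ± 2.99 and Ptbp1 from 4.66 ± 0.819 to 9.61 ± 1.64. These values are descriptions with no test. The marker genes changed unevenly themselves, from a log2 fold change of -2.43 for Pln to 0.80 for Nppa, so the scale depends on which markers are summed.

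Most genes whose exons RBM20 is known to control gave lower totals. Of 15 such genes 11 fell, 2 rose and 2 were not called (median log2 fold change -0.62), where 27.9% of all genes fell. Of the 15 cardiomyocyte markers 13 fell, with a lower median of -1.12. Whether the RBM20 list differs from other heart muscle genes was not tested. Titin, Ttn, the giant sarcomere spring, went from 3896 ± 947 to 1802 ± 352 CPM (SD, n = 5, log2 fold change -1.11). Ryr2, the calcium release channel, which is also on the cardiomyocyte list, went from 3202 ± 417 to 1355 ± 197 CPM. Ldb3, a Z-disc gene, had a log2 fold change of -1.11 (SE 0.09), close to that of Rbm20. Camk2d, the calcium-dependent kinase gene with a well-known RBM20-controlled exon cassette, fell less (-0.54, SE 0.07) and was not called with library size only. Rtn4 (0.70, SE 0.21) and Lrrfip1 (0.41, SE 0.08) rose. With library size only, 7 of the 15 fell and 2 rose. Which isoforms these genes made cannot be read from counts per gene.

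Under TMM, 6 further lists of splicing genes had medians between -0.35 and -0.03. Among 14 relatives of the members 8 were tested, of which 5 fell, 2 rose and 1, Matr3, was not called (-0.19, adjusted p = 0.079, median of the 8 -0.35). Of 12 tested SR proteins, which bind exonic enhancers, 5 fell and 1 rose (median -0.10). Srsf5 (-0.52) and Srsf2 (-0.49) fell, and Srsf9 rose (0.43). Of 23 hnRNP genes 12 fell and 1 rose (median -0.16), with Hnrnpdl (-0.74) and Hnrnpd (-0.65) down and Hnrnpab (0.43) up. Among 23 tested auxiliary factors 9 fell and 2 rose (median -0.18), including the fall of Nova1 (-1.03), a neuronal splicing factor gene, and of Srrm2 (-0.85), which encodes a nuclear speckle scaffold. Tia1 (0.36) and Rbm47 (0.82) rose. Core spliceosome genes split into 15 lower and 6 higher of 38 (median -0.11). Snrnp200 (-0.54) and Prpf8 (-0.50) of the U5 particle fell, and Snrpd1 (0.65) and Snrpc (0.37) rose. Over all tested genes 27.9% were called lower, 28.9% higher and 56.8% either way. Either way, 50% of the SR proteins, 56.5% of the hnRNPs, 47.8% of the auxiliary factors and 55.3% of the core spliceosome were called. Among the relatives it was 87.5%.

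With library size as the only scaling, SR proteins had 7 higher and 0 lower (median log2 fold change 0.26) and hnRNPs 12 and 4 (0.20). Auxiliary factors had 7 and 2 (0.18) and the core spliceosome 20 and 0 (0.26). Higher calls thus outnumbered lower ones in these 4 lists, the reverse of TMM. They also did over all tested genes on that scaling, at 51% higher and 12.7% lower (median 0.37). The relatives then had 2 higher and 2 lower (median 0.01), the kinase and import list 5 higher and 1 lower (0.34), and the 10 regulators a median of -0.16. A difference between the members and these lists was not tested. Among 8 genes of SR protein kinases and of the importer Tnpo3, which phosphorylate or carry RS-domain proteins such as RBM20 into the nucleus, 1 fell and 2 rose under TMM (median -0.03). The muscle kinase gene Srpk3 fell from 30.1 ± 2.98 to 16.2 ± 2.15 CPM (SD, n = 5, log2 fold change -0.90, adjusted p = 3.3e-05), also with library size only, while Clk3 (0.50) and Srpk1 (0.25) rose.

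**Figure D4:**
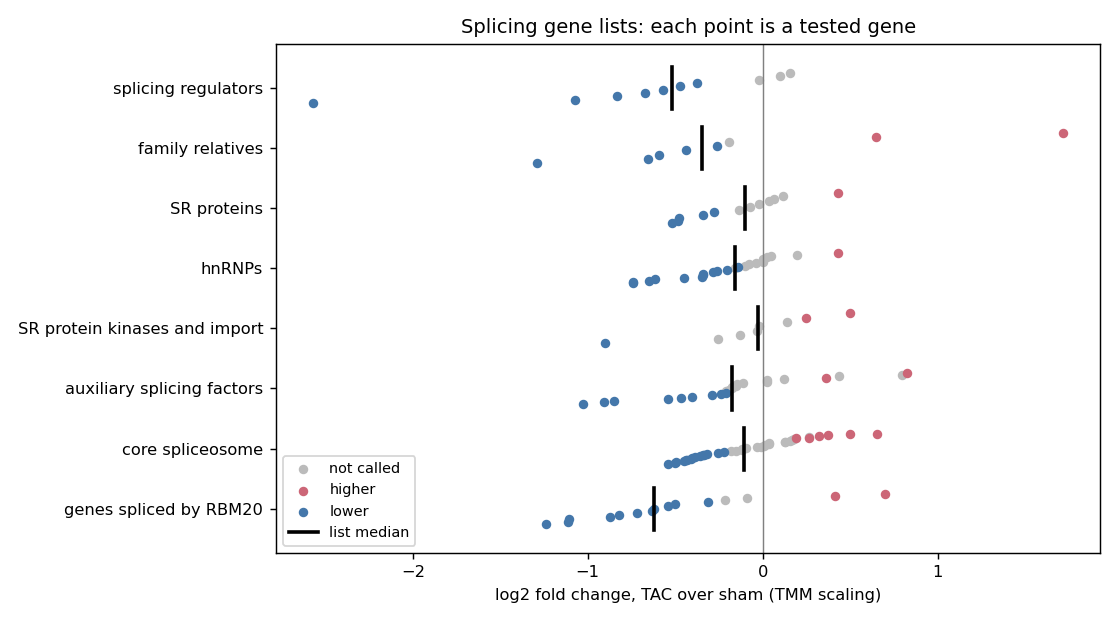
Log2 fold change (TAC over sham, x axis, TMM scaling) of every tested gene in the 10 regulators and 7 other splicing lists, coloured by call, with list medians as black bars. The medians of the regulators (-0.52) and of genes spliced by RBM20 (-0.62) lie furthest below 0, and Rbfox1 is the leftmost point.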

How the data were processed

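The authors deposited 1 table of raw counts per gene symbol for each of 10 libraries, without normalization. The submitters' processing notes name STAR, bcl2fastq and build mm10. Which counter, strand setting and gene annotation were used is not given in the sources used here. The 5 closing tallies that name no gene stayed out of library sizes and tests; reads in no gene averaged 3.12% of reads in sham and 3.76% in TAC, and ambiguous reads 4.31% and 5.79%. Symbols were matched to GENCODE M21 (GRCm38) for positions, exon lengths and overlaps (95.7% matched).

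Counts were tested in edgeR 4.0.16 under R 4.3.3 by its quasi-likelihood method (TMM, filterByExpr, robust estimation, group as the only term), adjusted over 15175 genes and called at an adjusted p under 0.05. The standard error is the log2 fold change divided by the square root of F. The 6 fixed ratios of counts (0.5 added) were compared by exact permutation. On simulated data the fit recovered 47.8% of 1.5-fold, 74.6% of 2-fold and 90.9% of 4-fold changes, and 2.74% of its calls were false. Only 67, 67 and 66 genes of 14712 were changed there, far fewer than were called in these data. The members, gene lists, ratios and the rule for named genes (all members, their tested relatives, and up to 2 called genes with the smallest adjusted p in each direction of each list) were chosen with earlier results of these data known. The gene nearest to each member by correlation, which that rule also names, is not printed because the libraries form 2 separate groups. Alternatives were other scalings, filters, DESeq2 1.42.0, limma 3.58.1 voom, non-robust estimation, a replicate block, mitochondrial genes removed, stricter thresholds and libraries left out. Tables were made with Python 3.11.15. The depth gave each member at least 445 counts in every library.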

Additional observations from a re-analysis of the deposited data

Results flagged for a closer look

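In 8 of 64 groups of 5 libraries checked, 1 library stood apart from the other 4 by a gap that chance gives in about 5% of groups. Rbfox1 was at 75.68 CPM in sham replicate 1 against 96.3 to 101.6 in the other sham libraries, and at 25.77 CPM in TAC replicate 1 against 11.1 to 14.7 in the other TAC libraries. The log2 ratio of Rbfox2 to Rbfox1 was 1.125 in sham replicate 1 (against 0.63 to 0.77). Ptbp1 was at 55.93 CPM in sham replicate 1 against 41.2 to 45.0. Mbnl1 was at 168.1 CPM in TAC replicate 4 against 132.3 to 142.4. Among summed markers, adipocyte genes were at 8.457 CPM in TAC replicate 4 (0.424 to 2.37 elsewhere in TAC), mesothelial genes at 375.6 CPM in TAC replicate 5 (155.7 to 208.5) and erythroid genes at 2547 CPM in TAC replicate 3 (298 to 574).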

How the results depend on the processing

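Rbm20 and Rbfox1 were called lower under all 23 alternatives, and Qk, Rbm24 and Mbnl2 under all but a size threshold of 1 on the log2 scale. That threshold left 2 of the 10 regulators, both lower, 6 genes of the other splicing lists (1 higher, 5 lower) and 3010 of all genes (1781 higher, 1229 lower). With library size as the only scaling, 3 regulators were higher; over all genes 7741 were higher and 1929 lower, and in the other lists 55 were higher and 16 lower. The number of regulators called higher was 0 to 1 with single libraries left out and 1 without sham replicates 1 and 2, which were shallow; the 1 was Ptbp1. Rbfox2 changed sign with library size only (0.34), with upper-quartile factors (0.0281), and without TAC replicate 1 or 5 (log2 fold changes with 1 library left out ran from -0.0391 to 0.0221).

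Sham and TAC libraries with the same number showed no shared deviation over the tested genes (correlations -0.04 to 0.08). Of the 5 sham libraries 1 correlated best with its own number. The labels name no pairing, and so few correlations cannot exclude one. With a replicate block 8020 genes were called instead of 8616, and the same 7 of 10 regulators in number. The log2 differences of the ratios are the same under a replicate block by arithmetic (0.57 for Celf2 to Celf1, -0.18 for Mbnl2 to Mbnl1, 2.60 for Rbfox2 to Rbfox1, -0.74 for Ptbp2 to Ptbp1 and 0.48 for Ptbp3 to Ptbp1), and 5 pairs cannot reach the threshold (adjusted p = 0.075 for each, exact). With 1 library left out the Mbnl2 to Mbnl1 difference ran from -0.22 to -0.14.

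Groups of 5 and unstated strand limit what is read from Ptbp1 and Celf2. The cause of the changes with scaling was not tested beyond the shift of the median of all genes.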
